A study of Homo sapiens with 12 samples.

Results

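The experiment compared MDA-MB-231 cells after knockdown of PKM2 with their own negative control (NC) cells, which took 6 of the 12 libraries of the series, 3 per group. Both groups were the same wild-type line, an established human triple-negative breast cancer line, so the control libraries differed from the knockdown libraries in the silenced gene and carried no other named allele or agent. The series text gives siRNA as the knockdown reagent and the deposited labels do not say which siRNA was used, nor whether the 3 libraries of a group came from separate cultures, so the P values below measure the spread between these libraries, which could be technical. RNA was selected by its poly(A) tail and read in pairs of 150 bases. The question was which transcripts change when PKM2 is reduced, and the members described here are the 15525 genes, of 60671 in the table, that had enough counts to be tested.

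Pyruvate kinase catalyses the last step of glycolysis, in which phosphoenolpyruvate is turned into pyruvate and ATP is made. The PKM gene yields PKM1 and PKM2 through the choice between a pair of neighbouring exons, and proliferating and tumour cells mostly make PKM2, which switches between a fully active tetramer and less active forms and has also been described in the nucleus. Because glycolysis feeds the synthesis of nucleotides, lipids and amino acids, the genes below are grouped into lists by process, with each list described by how many of its members were raised or lowered.

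Each library held between 24097948 and 28455268 estimated counts. Between 22740 and 23435 genes had at least 1 count in an NC library and between 21986 and 22342 in a knockdown library, so every knockdown library detected fewer genes although the depths overlapped. The first principal component held 87.2% of the variance and separated the groups, and the second held 4.30% and set the third knockdown library (KD3) apart from the other two. Counts of KD3 differed from those of its replicates by a chi-square per degree of freedom of 13.4 and 11.4, where the other replicate pairs lay between 3.45 and 4.41. KD3 also had the strongest trend with transcript length (Spearman correlation of its deviation from the NC mean with length across protein-coding genes -0.16, against -0.03 and -0.02 for the other knockdown libraries), whose part in the results was not tested beyond the fits named below. Levels are given as CPM, which are counts scaled to a library of 1000000 after TMM scaling. A gene was called raised or lowered at a Benjamini-Hochberg adjusted P below 0.05 in edgeR's quasi-likelihood test over all 15525 genes.

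The targeted gene was examined first. PKM (ENSG00000067225), on chromosome 15 of GRCh38 from 72199029 to 72231822, was at 2276, 2211 and 2324 CPM in the NC libraries and 218, 228 and 234 CPM in the knockdown libraries. All knockdown libraries were far below all NC libraries, by 10-fold on average (log2 fold change -3.32, SE 0.05, adjusted P = 7.01e-12). Estimated counts were summed over the whole gene, so how much of the loss fell on each isoform cannot be read from them. The 5 rows named as PKM pseudogenes summed to a mean of 0.026 CPM in NC and 0.014 CPM after knockdown, so reads assigned to them did not make up for the fall.

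Most of the tested transcriptome moved. In total, 5221 genes were raised (33.6% of those tested) and 5394 were lowered (34.7%), which is 68.4% in either direction, and the NC and knockdown libraries did not overlap for 11161 genes (71.9%). Without KD3, 5375 were raised and 5486 lowered. The larger changes leaned downward. Genes that moved by more than 2-fold at an unadjusted P below 0.05 were counted as DEGs, of which 1095 were raised (7.05%) and 2141 lowered (13.8%). Among called genes 39 rose and 163 fell by more than 8-fold. Among the 9806 genes with a mean of at least 10 CPM the lean was smaller, with 539 raised and 801 lowered by more than 2-fold. By the way they were grouped, raised genes gained and lowered genes lost a share of all counts. Raised genes held 43.9% of the counts in NC and 59.5% after knockdown, and lowered genes held 35.9% and 21.7%.

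**Figure D1:**
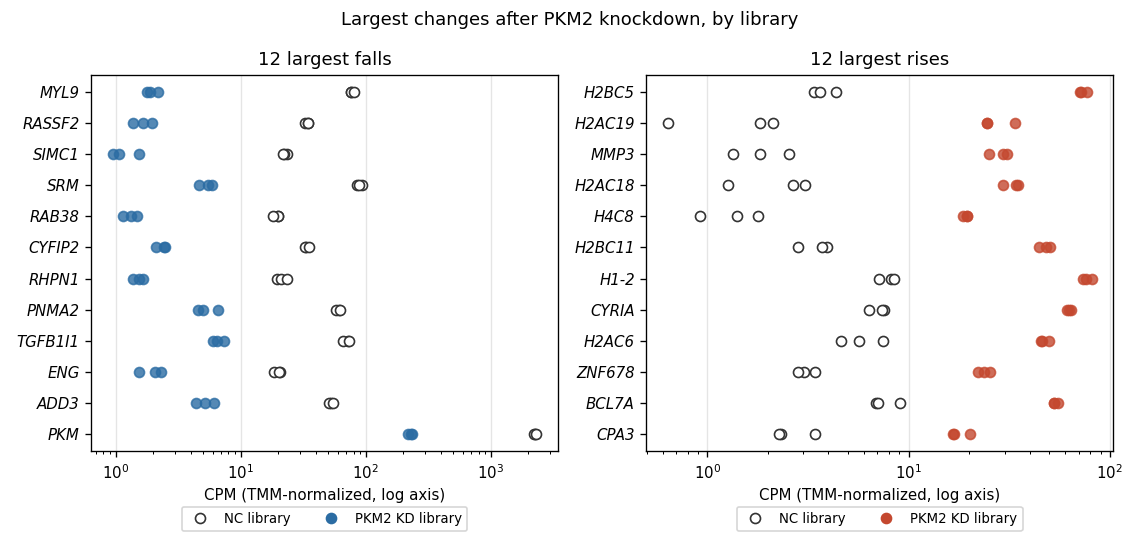
Levels in CPM (log axis) of the protein-coding genes with the 12 largest falls (left, blue) and the 12 largest rises (right, red) among genes with a mean of at least 10 CPM, with each of the 3 NC libraries as an open circle and each of the 3 PKM2 knockdown (KD) libraries as a filled circle. In every row the groups stand apart, as the choice of these genes required, from PKM at 2270 against 227 CPM to H2BC5 at 3.79 against 73.4 CPM.

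Among genes with a mean of at least 10 CPM, the largest fall belonged to MYL9, a regulatory light chain of non-muscle and smooth muscle myosin, on chromosome 20 of GRCh38 from 36541484 to 36551447. It was at 76.2, 75.8 and 81.3 CPM in the NC libraries and 1.78, 1.89 and 2.18 CPM in the knockdown libraries (log2 fold change -5.31, SE 0.09, adjusted P = 8.15e-12). The transcript was thus nearly gone from every knockdown library. MYH10, a non-muscle myosin heavy chain with a mean just under that limit, went from 15.4 to 0.616 CPM (log2 fold change -4.62). TGFB1I1, the focal adhesion adaptor Hic-5, fell from 70.7 to 6.63 CPM (log2 fold change -3.41). ADD3, an adducin of the membrane skeleton, fell from 52.8 to 5.25 CPM, and the rhophilin gene RHPN1 from 21.3 to 1.52 CPM. SRM, spermidine synthase of the polyamine pathway, was at 94, 85 and 89.2 CPM in the NC libraries and 5.47, 4.64 and 5.91 CPM in the knockdown libraries (log2 fold change -4.06, SE 0.09, adjusted P = 3.75e-11). Groups that did not overlap were a condition of the choice of the 12 genes. The remaining large falls were of RASSF2, a RAS association domain protein (-4.35), SIMC1 (-4.24), the GTPase gene RAB38 (-3.87), CYFIP2 of the WAVE complex (-3.84), PNMA2 (-3.48) and ENG, the TGF-beta co-receptor endoglin (-3.33), each as a log2 fold change. PKM completed the 12 genes with the largest falls, which are listed because of that size and are given no test over them.

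Among the 12 largest rises, 7 were histone genes, described next. MMP3, the secreted protease stromelysin-1 (chromosome 11 of GRCh38, from 102835801 to 102843803), was at 2.56, 1.83 and 1.34 CPM in the NC libraries and 31, 25 and 29.4 CPM in the knockdown libraries (log2 fold change 3.89, SE 0.17, adjusted P = 3.03e-09). CYRIA, which binds the GTPase RAC1 and restrains the WAVE complex that CYFIP2 is part of, rose from 7.11 to 62.6 CPM (log2 fold change 3.14). BCL7A, a subunit of the BAF chromatin remodelling complex, rose from 7.66 to 53.7 CPM (log2 fold change 2.82), ZNF678, a zinc finger gene, from 3.08 to 23.8 CPM, and CPA3, a carboxypeptidase best known from mast cells, from 2.67 to 17.8 CPM. All 3 knockdown libraries were above all 3 NC libraries for each of them, as the choice of these genes required.

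The clustered histone genes showed the largest shift of any list. They encode the core and linker histones, and most of their transcripts are made in S phase and end in a stem-loop in place of a poly(A) tail, so a poly(A)-selected library sees only the part that carries a tail. Of 70 clustered histone genes, 25 had enough counts to be tested, and the other 45 did not pass the filter. A gene that passed through the group where it was high had to differ, so the counts describe only those 25. Among them, 23 of 25 members tested were raised and 1 was lowered, beside 33.6% and 34.7% of all genes tested, and the median log2 fold change was 2.61. Without KD3 the counts were 23 raised and 1 lowered. The summed level of the 25 genes was 109, 112 and 111 CPM in the NC libraries and 802, 836 and 896 CPM in the knockdown libraries. H2BC12 made up most of it, with 71.7, 69.7 and 76.5 CPM in the NC libraries and 408, 444 and 475 CPM in the knockdown libraries (log2 fold change 2.61, SE 0.06, adjusted P = 8.86e-11).

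The largest histone rise was of H2BC5, an H2B gene, at 4.37, 3.38 and 3.63 CPM in the NC libraries and 71.7, 71.1 and 77.2 CPM in the knockdown libraries (log2 fold change 4.27, SE 0.09, adjusted P = 3.75e-11). The linker histone gene H1-2 was at 8.16, 8.42 and 7.09 CPM in the NC libraries and 73.2, 76.5 and 81.2 CPM in the knockdown libraries (log2 fold change 3.29, SE 0.08, adjusted P = 8.03e-11). Each of the core histone types had members that rose, with H2AC6 and H2BC11 going from 5.92 to 47.1 CPM and from 3.49 to 47.6 CPM and H4C8 and H3C10 going from 1.37 to 19.2 CPM and from 0.615 to 2.74 CPM. H2AC18 and H2AC19 are near-identical copies, so the split of reads between them is uncertain, but their sum went from a mean of 3.86 to 60.4 CPM. H1-4 was the lowered member, at a mean of 0.593 CPM in NC and 0.246 CPM after knockdown, and its call was lost with DESeq2 and without the first or the second knockdown library. SLBP, the protein that binds the histone stem-loop, fell slightly (log2 fold change -0.20, SE 0.07, adjusted P = 0.0154).

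Stretches of the promoters of the 4 histone genes with the largest rise whose window held either motif are shown because these genes all rose. They come from RefSeq on GRCh38.p14 and are the 120 bases before the annotated start, with every TATAAA and CCAAT, on either strand, in capitals. H2BC5 is at chr6:26158001-26158120 on the plus strand, H2AC19 at chr1:149850941-149851060 on the plus strand, H2AC18 at chr1:149842751-149842870 on the minus strand and H2BC11 at chr6:27132796-27132915 on the minus strand.
H2BC5: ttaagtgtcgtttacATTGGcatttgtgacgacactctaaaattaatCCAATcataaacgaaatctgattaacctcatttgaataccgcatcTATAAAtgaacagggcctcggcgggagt
H2AC19: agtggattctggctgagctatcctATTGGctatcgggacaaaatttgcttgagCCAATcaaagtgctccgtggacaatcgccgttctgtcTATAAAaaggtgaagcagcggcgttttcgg
H2AC18: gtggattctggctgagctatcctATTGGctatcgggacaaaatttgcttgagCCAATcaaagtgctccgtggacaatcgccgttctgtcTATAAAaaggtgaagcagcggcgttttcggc
H2BC11: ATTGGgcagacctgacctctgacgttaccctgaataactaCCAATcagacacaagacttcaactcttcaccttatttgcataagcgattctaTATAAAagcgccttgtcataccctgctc
Each of the 4 stretches held a TATAAA close to its end and at least a pair of CCAAT words. In the 250 bases before the start, TATAAA was found on either strand in 17 of the 25 tested histone promoters (68%), where 5.40% of the 11058 tested genes with a promoter entry had it. CCAAT was found in 21 of 25 (84%), where 35.2% of the same genes had it. H1-4, which fell, held both words, and H4C8 and H4C15, which rose, held neither.

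Of the 49 lists, 24 had more members raised than lowered and 25 more lowered than raised. No list changed its majority without KD3, and no list median moved by more than 0.14 on the log2 scale. Over 19 alternative settings, 41 lists never changed their majority, and the other 8 are named where they are described. The lists were drawn up with earlier results of these data known, so their counts are read beside the shares of all genes and carry no P value.

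The glycolysis list was lowered for the most part. Apart from PKM itself, which was kept out of the list, 4 of 22 members tested were raised and 13 were lowered (median log2 fold change -0.30). The falls included the steps on both sides of the pathway. HK2, the hexokinase that traps glucose in the cell, was at 179, 174 and 179 CPM in the NC libraries and 82.8, 90.4 and 79.6 CPM in the knockdown libraries (log2 fold change -1.07, SE 0.06, adjusted P = 1.2e-08). LDHA, which turns pyruvate into lactate, was at 1982, 1916 and 1977 CPM in the NC libraries and 1123, 1156 and 1174 CPM in the knockdown libraries (log2 fold change -0.77, SE 0.04, adjusted P = 1.96e-08). Neither gene had overlapping groups, and the same held for SLC16A3, the lactate exporter MCT4, which fell from 409 to 190.4 CPM (log2 fold change -1.10). PFKFB3, whose product activates phosphofructokinase, fell from 232 to 107 CPM (log2 fold change -1.12), and GPI, the next enzyme after hexokinase, from 370.1 to 191 CPM (log2 fold change -0.96). ALDOC, the brain-type aldolase, had the largest fall (-2.52) from a low level of 18.9 CPM. In contrast, ENO1, the enolase whose product is the substrate of pyruvate kinase, rose slightly (0.28), and the glucose transporter gene SLC2A3 (GLUT3) rose from 30.8 to 103 CPM (log2 fold change 1.74) while SLC2A1 (GLUT1) fell from 207 to 175 CPM (log2 fold change -0.24). The largest rise was of SLC16A1, the monocarboxylate transporter MCT1, from 0.302 to 1.35 CPM (log2 fold change 2.14). SLC16A1 passed the count filter only through the knockdown libraries, where it was high, so a difference was built in. PGK1, PGAM1 and TPI1 were not called, with log2 fold changes of -0.05, 0.06 and 0.11.

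In the pentose phosphate list, 5 of 10 members tested were raised and 4 were lowered, and the majority turned under 4 settings. TKT, transketolase, rose by 0.26 on the log2 scale, and H6PD, which acts inside the endoplasmic reticulum, fell from 44.3 to 24 CPM. In the serine and one-carbon list, 3 of 13 members tested were raised and 5 were lowered. PHGDH, the entry enzyme of serine synthesis, was not called (0.10), whereas TYMS, thymidylate synthase, was at 277, 255 and 264 CPM in the NC libraries and 93.8, 95 and 102 CPM in the knockdown libraries (log2 fold change -1.45, SE 0.05, adjusted P = 1.02e-09). TYMS was lower in every knockdown library and is the member that makes a DNA precursor.

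In the tricarboxylic acid cycle list, 9 of 26 members tested were raised and 13 were lowered (median -0.11). The entry to the cycle was on the lowered side. PDHB and DLAT, subunits of the pyruvate dehydrogenase complex, fell from 89.5 to 43.7 CPM (log2 fold change -1.03) and from 123 to 64.7 CPM (log2 fold change -0.93), and CS, citrate synthase, from 153 to 92.2 CPM (log2 fold change -0.73). IDH1 and IDH2, the NADP-dependent isocitrate dehydrogenases, fell from 92.6 to 50.4 CPM (log2 fold change -0.88) and from 20.3 to 7.3 CPM (log2 fold change -1.48). Succinate dehydrogenase subunit SDHB and OGDH, of the oxoglutarate dehydrogenase complex, rose (0.59 and 0.40). The nuclear genes of the respiratory chain gave 28 raised and 13 lowered of 73, with a small median of 0.10, and their majority turned under 2 of the fits on TPM. Without KD3 they gave 25 raised and 20 lowered. The 13 protein-coding genes of the mitochondrial genome gave 2 raised and 8 lowered. MT-CO1, a core subunit of cytochrome c oxidase, was at 9451, 9381 and 9796 CPM in the NC libraries and 5116, 5229 and 5273 CPM in the knockdown libraries (log2 fold change -0.87, SE 0.04, adjusted P = 4.96e-09), whereas MT-ND2, a subunit of complex I, rose from 3919 to 5426 CPM (log2 fold change 0.47).

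Lipid synthesis genes fell. For fatty acid synthesis and desaturation, 3 of 19 members tested were raised and 14 were lowered (median -0.69), and for cholesterol synthesis and uptake, 1 of 25 members tested was raised and 13 were lowered (median -0.22). SCD, the stearoyl-CoA desaturase, was at 488, 426 and 510.2 CPM in the NC libraries and 181, 182 and 164 CPM in the knockdown libraries (log2 fold change -1.43, SE 0.07, adjusted P = 8.04e-09). The desaturase genes FADS1 and FADS2 fell from 232 to 74.7 CPM (log2 fold change -1.64) and from 303 to 127 CPM (log2 fold change -1.25), FASN, the fatty acid synthase, from 700.2 to 452 CPM (log2 fold change -0.63), and SREBF1, which encodes the transcription factor SREBP1, from 74.4 to 39.8 CPM (log2 fold change -0.90). In the cholesterol list, SC5D, a sterol desaturase of the late steps, was at 51.6, 48.9 and 52.7 CPM in the NC libraries and 19.9, 17 and 18.9 CPM in the knockdown libraries (log2 fold change -1.46, SE 0.07, adjusted P = 8.13e-09). SQLE, squalene epoxidase, fell from 34.5 to 20.1 CPM (log2 fold change -0.78), and MSMO1, a sterol methyl oxidase, from 86.1 to 44.1 CPM (log2 fold change -0.96). ACSL4 and ACSL3, acyl-CoA synthetases that load ready-made fatty acids, rose (0.63 and 0.48).

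Ribosomal protein genes were raised more often than lowered, most of them by small amounts. Abundant protein-coding genes as a whole were also raised more often than scarce ones, as given below. These lists were not compared with genes of a like level. For the cytosolic ribosome, 52 of 79 members tested were raised and 9 were lowered (median 0.24). Without KD3, 52 were raised and 13 lowered (median 0.17). For the mitochondrial ribosome, 47 of 77 members tested were raised and 7 were lowered (median 0.31, and 46 raised and 11 lowered without KD3). RPS6, a small subunit protein, rose from 357 to 461 CPM (log2 fold change 0.37), RPL13 rose most (0.83), and MRPL36 and MRPL45 of the mitochondrial ribosome went from 34.2 to 86.3 CPM and from 60.2 to 152 CPM. RPL10, a protein of the large subunit, went against the rest. It was at 502, 495 and 504 CPM in the NC libraries and 59.5, 57.5 and 62.3 CPM in the knockdown libraries (log2 fold change -3.07, SE 0.05, adjusted P = 8.15e-12). The next largest fall in the list was of RPL22 (-0.96). The 19 rows named as RPL10 pseudogenes summed to a mean of 0.11 CPM in NC and 0.013 CPM after knockdown, so these rows held no gain to set against the loss. The processing notes name RSEM without its role, and how reads were divided between near-identical copies is not stated there. For the aminoacyl-tRNA synthetases, which load amino acids onto tRNA, 9 of 20 members tested were raised and 3 were lowered, led by SARS1 and KARS1 (0.91 and 0.81).

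Genes of protein disposal were raised more often than lowered. For the proteasome, 21 of 31 members tested were raised and 3 were lowered (median 0.25, and 0.19 without KD3). Like the ribosomal lists, it was not compared with genes of a like level. PSMC3, an ATPase of its base, rose from 139.7 to 299 CPM (log2 fold change 1.10), PSMB5, a catalytic subunit, rose from 159 to 206 CPM (log2 fold change 0.37), and PSMD3 fell from 221 to 134 CPM (log2 fold change -0.73). For the lysosome and the V-ATPase that acidifies it, 33 of 46 members tested were raised and 8 were lowered (median 0.41). ATP6V1B2, a V-ATPase subunit, was at 162, 153 and 160.1 CPM in the NC libraries and 387, 376 and 372 CPM in the knockdown libraries (log2 fold change 1.26, SE 0.05, adjusted P = 9.94e-10). Groups did not overlap for this gene or for the protease gene CTSB, which rose from 216 to 477 CPM (log2 fold change 1.14). LAMP1, a lysosomal membrane protein, went from 189 to 299 CPM, and SQSTM1, the autophagy receptor p62, from 1157 to 2052 CPM. TFEB, a transcription factor of lysosomal genes, was itself lowered (-0.76). Chaperones of the endoplasmic reticulum took the other direction, with 6 raised and 11 lowered of 23. HSPA5 (BiP), the main chaperone of that compartment, was at 805, 766 and 798 CPM in the NC libraries and 461, 422 and 441 CPM in the knockdown libraries (log2 fold change -0.84, SE 0.05, adjusted P = 2.75e-08), and HSP90B1 fell from 808 to 451 CPM (log2 fold change -0.84).

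Stress response genes moved in parts. In the integrated stress response, kinases that sense amino acid lack, unfolded protein or viral RNA slow translation and raise the factor ATF4. For its list, 13 of 24 members tested were raised and 7 were lowered (median 0.66). The transcription factor genes rose, with ATF4 at 174, 218 and 194 CPM in the NC libraries and 423, 438 and 475 CPM in the knockdown libraries (log2 fold change 1.19, SE 0.08, adjusted P = 6.66e-08) and DDIT3 (CHOP) rising from 12.9 to 53.1 CPM (log2 fold change 2.05). PPP1R15A (GADD34), the phosphatase subunit that restores translation, was at 163, 266 and 165 CPM in the NC libraries and 1098, 1013 and 1075 CPM in the knockdown libraries (log2 fold change 2.42, SE 0.15, adjusted P = 6.6e-08). GDF15, a secreted stress cytokine, rose from 19.8 to 111 CPM (log2 fold change 2.50). The enzyme and transporter members were split. ASNS, asparagine synthetase, was not called (-0.16). The amino acid transporter gene SLC7A11 rose from 236 to 410.3 CPM (log2 fold change 0.80) while SLC7A5 fell from 236 to 156 CPM (log2 fold change -0.60). CHAC1, which degrades glutathione, went from 23.5 to 7.9 CPM (log2 fold change -1.57, SE 0.54, adjusted P = 0.0229). Its libraries were widely spread, with an SD of 11.2 CPM in NC and 8.67 CPM after knockdown. CLIC4, a chloride intracellular channel protein, had the largest fall in the list, from 299.8 to 47.3 CPM (log2 fold change -2.66).

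NRF2, the product of NFE2L2, activates genes against oxidants and foreign chemicals. In its list, 19 of 23 members tested were raised and 3 were lowered (median 0.52, and 0.37 to 0.69 over the alternative settings). FTL, ferritin light chain, was among the most abundant genes of all and was at 3765, 3628 and 3719.6 CPM in the NC libraries and 10377, 10728 and 12214 CPM in the knockdown libraries (log2 fold change 1.58, SE 0.06, adjusted P = 1.1e-09). FTH1, the heavy chain, went from 1574 to 3196 CPM (log2 fold change 1.02). Both ferritin genes were higher in every knockdown library, and together they bind and store iron. AKR1B10, an aldo-keto reductase, rose from 0.448 to 6.5 CPM (log2 fold change 3.82), OSGIN1 from 12.7 to 48.9 CPM (log2 fold change 1.94), and the textbook targets NQO1 and HMOX1 by smaller log2 values of 0.35 and 0.52. TXNRD1, thioredoxin reductase, was the clear exception, at 895, 886 and 884 CPM in the NC libraries and 478, 451 and 428 CPM in the knockdown libraries (log2 fold change -0.97, SE 0.05, adjusted P = 1.03e-08). NFE2L2 itself rose (0.35), as did KEAP1, its inhibitor (0.63), and GCLM of glutathione synthesis fell (-0.34). The word TGACNNNGC, the core of the antioxidant response element, was found on either strand in the 250 bases before the start of 2 of 15 list members with a promoter entry (13.3%) and of 12.1% of all tested genes with one. Of the 12 raised members with an entry, 0 held it.

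Interferon-stimulated and RNA-sensing genes, which respond to viral RNA and interferon, were raised in the main. Of 46 listed, 8 had too few counts to be tested, among them MX1, OAS1 and RSAD2, and of the rest 21 of 38 members tested were raised and 3 were lowered (median 0.52). IFIT1, which binds foreign RNA, was at 15.1, 14.5 and 15.2 CPM in the NC libraries and 71.1, 67.2 and 71.1 CPM in the knockdown libraries (log2 fold change 2.22, SE 0.06, adjusted P = 1.53e-10). OASL was at 4.85, 6.04 and 5.75 CPM in the NC libraries and 30.8, 27.9 and 28.8 CPM in the knockdown libraries (log2 fold change 2.40, SE 0.10, adjusted P = 1.9e-09). ISG15, a ubiquitin-like modifier, rose from 63.4 to 152 CPM (log2 fold change 1.26), and IFIH1 (MDA5), a sensor of double-stranded RNA, from 3.05 to 11.2 CPM (log2 fold change 1.87). OAS3 fell from 2.78 to 0.818 CPM, and IFITM1, IFITM2 and EIF2AK2 (PKR) were not called.

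Promoters of 3 raised members are shown because most of the called members rose. They hold the core of the interferon-stimulated response element, searched as GAAA followed by any 2 bases and GAAA again, on either strand and in capitals, and are again 120 bases before the start from RefSeq on GRCh38.p14. IFIT1 is at chr10:89392503-89392622 on the plus strand, IFIH1 at chr2:162318685-162318804 on the minus strand and HERC5 at chr4:88456999-88457118 on the plus strand.
IFIT1: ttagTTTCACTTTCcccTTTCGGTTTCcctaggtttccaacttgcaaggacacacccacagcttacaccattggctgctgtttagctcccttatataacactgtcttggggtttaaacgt
IFIH1: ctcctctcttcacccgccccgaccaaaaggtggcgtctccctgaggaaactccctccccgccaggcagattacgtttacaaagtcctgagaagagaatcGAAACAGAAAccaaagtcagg
HERC5: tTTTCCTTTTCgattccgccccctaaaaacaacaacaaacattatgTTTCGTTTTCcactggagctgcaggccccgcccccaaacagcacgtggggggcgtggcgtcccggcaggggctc
That core was found in the 250 bases before the start of 15 of 29 members with a promoter entry (51.7%), where 2.39% of all tested genes with one had it. Among raised members it was in 9 of 16. The genes of the list were known interferon targets, so this share describes the list and was no measure of the response.

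Antigen presentation followed the same direction, with 10 raised and 1 lowered of 20 in the MHC class I list. B2M, the light chain of MHC class I, was at 524, 525 and 528 CPM in the NC libraries and 865, 886 and 971 CPM in the knockdown libraries (log2 fold change 0.79, SE 0.05, adjusted P = 7.32e-08). HLA-B, which encodes a heavy chain, rose from 234 to 347 CPM (log2 fold change 0.57). The exception was TAPBP (tapasin), which loads peptides onto the heavy chain and fell from 99.4 to 32.8 CPM (log2 fold change -1.60). PSMB8, a catalytic subunit of the immunoproteasome that cuts peptides for presentation, rose from 23.4 to 51.2 CPM (log2 fold change 1.13). HLA genes are alike in sequence and their counts are uncertain. Chemokines and cytokines were split, with 10 raised and 9 lowered of 25, and their majority turned under 3 settings. IL1B was at 254, 353 and 289 CPM in the NC libraries and 86.5, 65 and 61.6 CPM in the knockdown libraries (log2 fold change -2.07, SE 0.13, adjusted P = 7.52e-08). CXCL8 (interleukin-8), a neutrophil attractant, fell from 87.9 to 26.3 CPM (log2 fold change -1.74), and IL11 fell (log2 fold change -1.92), whereas PTGS2 (cyclooxygenase 2) rose from 6.15 to 20.7 CPM (log2 fold change 1.76) and IL6 was not called (0.08). IL24, a cytokine of the interleukin-10 family, rose most, at 0.58, 0.516 and 0.529 CPM in the NC libraries and 5.93, 4.43 and 4.36 CPM in the knockdown libraries (log2 fold change 3.16, SE 0.24, adjusted P = 2.42e-07).

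The G2/M list leaned toward raised members. The G1/S list had somewhat more lowered than raised members but lay nearer the shares of all genes tested. The difference between the lists was not tested. For G1/S and DNA replication, 17 of 58 members tested were raised and 24 were lowered (median -0.08), and for G2/M and mitosis, 33 of 58 members tested were raised and 11 were lowered (median 0.22). PCNA, the sliding clamp of DNA replication, was at 135, 134 and 132 CPM in the NC libraries and 28.3, 29.2 and 34.4 CPM in the knockdown libraries (log2 fold change -2.12, SE 0.07, adjusted P = 4.96e-10). POLD2 and POLD1, subunits of DNA polymerase delta, fell from 102 to 23.9 CPM (log2 fold change -2.09) and from 136 to 50.5 CPM (log2 fold change -1.43), and the helicase gene MCM6 from 131 to 51.3 CPM (log2 fold change -1.35). The E-type cyclins that start S phase fell as well, with CCNE2 going from 41 to 12.1 CPM (log2 fold change -1.76) and CCNE1 from 7.22 to 0.231 CPM. E2F1, E2F2 and E2F8, transcription factors of the same stage, had log2 fold changes of -1.22, -2.26 and -2.73. Other genes of the list rose, among them the cyclin D gene CCND1 from 704 to 1025 CPM (log2 fold change 0.54), RRM2, a ribonucleotide reductase subunit, from 162 to 272 CPM (log2 fold change 0.75), and RPA1, which coats single-stranded DNA, from 329.7 to 557 CPM (log2 fold change 0.76). The largest log2 fold change in the list was 0.91. MCM2, of the same helicase as MCM6, was not called (0.05).

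On the mitotic side the rises were moderate. AURKB, the kinase of the chromosomal passenger complex, was at 81.5, 83.7 and 80.3 CPM in the NC libraries and 144, 146 and 164 CPM in the knockdown libraries (log2 fold change 0.89, SE 0.06, adjusted P = 9.3e-08). CKS1B and CKS2, small partners of cyclin-dependent kinases, rose by log2 values of 0.90 and 0.92, and CDK1, the mitotic kinase, rose from 145 to 207 CPM (log2 fold change 0.51). CCNB1, its cyclin, was not called (-0.06), PLK1 fell slightly (-0.22), and MKI67, the proliferation marker Ki-67, fell from 722 to 414 CPM (log2 fold change -0.80). The homologous recombination list had 12 raised and 17 lowered of 34. BRCA1 rose (0.33), and the largest moves were of FANCC (1.18) and FANCL (-1.28), both of the Fanconi pathway. In bulk RNA a changed share of cells in a phase and a changed level per cell cannot be told apart.

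For p53 targets, 5 of 23 members tested were raised and 12 were lowered (median -0.33). MDA-MB-231 is known to carry a mutant p53. CDKN1A (p21), a cell cycle inhibitor, was at 132, 127 and 138 CPM in the NC libraries and 54.2, 56.1 and 54.8 CPM in the knockdown libraries (log2 fold change -1.27, SE 0.05, adjusted P = 2.02e-09). FAS, a death receptor, fell from 7.62 to 1.13 CPM (log2 fold change -2.75) and MDM2, which degrades p53, from 59.5 to 40.2 CPM (log2 fold change -0.57). PMAIP1 (NOXA), a BH3-only killer protein that ATF4 also induces, went the other way, at 45.2, 62.8 and 45.4 CPM in the NC libraries and 216, 207 and 215 CPM in the knockdown libraries (log2 fold change 2.06, SE 0.10, adjusted P = 1.09e-08). In the BCL2 family, 9 of 16 members tested were raised and 5 were lowered, and killers and protectors each went both ways. Among the killers BBC3 (PUMA) rose from 7.89 to 16.1 CPM (log2 fold change 1.04) and BMF from 1.14 to 4.25 CPM (log2 fold change 1.90), BAD and BOK fell (-0.31 and -0.48), and BAX was not called (-0.07). Among the protectors BCL2L1 (BCL-xL) rose from 291 to 534 CPM (log2 fold change 0.87) while MCL1 fell (-0.33). In the MYC network, 1 of 12 members tested was raised and 5 were lowered. MYC itself was not called (-0.30), and MLXIPL (ChREBP), a glucose-responsive factor of the network, and its relative MLXIP (MondoA) fell from 2.48 to 0.538 CPM and from 88.6 to 37.4 CPM.

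Genes of the extracellular matrix and of cell adhesion were lowered for the most part. Like the ribosomal lists, these lists were not compared with genes of a like level. For laminins and matrix glycoproteins, 4 of 30 members tested were raised and 22 were lowered (median -0.76), and for integrins and focal adhesion, 7 of 37 members tested were raised and 22 were lowered (median -0.30). FN1, fibronectin, was at 305, 296 and 312 CPM in the NC libraries and 98.3, 106 and 78 CPM in the knockdown libraries (log2 fold change -1.70, SE 0.09, adjusted P = 1.51e-08). TNC, tenascin C, fell from 174 to 54 CPM (log2 fold change -1.69), the laminin chain gene LAMA5 from 328 to 142 CPM (log2 fold change -1.21), HSPG2, perlecan of basement membranes, from 159.9 to 56.2 CPM (log2 fold change -1.51), and MATN2, a matrilin, from 29.3 to 5.79 CPM (log2 fold change -2.34). The exceptions were few. THBS1, thrombospondin-1, and SDC4, a syndecan of focal adhesions, rose from 111 to 309 CPM (log2 fold change 1.47) and from 98.7 to 276 CPM (log2 fold change 1.48), and SPARC rose from 222 to 389 CPM (log2 fold change 0.81).

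ITGB1, the beta subunit that most integrins of these cells share, was at 1805, 1759.9 and 1762 CPM in the NC libraries and 798, 802 and 749 CPM in the knockdown libraries (log2 fold change -1.18, SE 0.04, adjusted P = 1.24e-09). Its partners ITGA3 and ITGA5 fell from 664 to 343 CPM (log2 fold change -0.95) and from 156 to 85.2 CPM (log2 fold change -0.87), and PXN, the adaptor paxillin, from 484 to 166 CPM (log2 fold change -1.54). ITGA6 and ITGA2 were not called (-0.12 and 0.03), and FLNA, the actin crosslinker filamin A, rose (0.33). Collagens were divided, with 7 raised and 10 lowered of 21 and a median of -0.40 that became -0.08 with length and GC offsets. COL4A1 rose from 36.5 to 89.1 CPM (log2 fold change 1.28), whereas COL4A2, which lies head to head with it, fell from 162 to 123 CPM (log2 fold change -0.40), and COL4A5 fell from 7.7 to 0.799 CPM (log2 fold change -3.26). COL15A1 rose most, from 0.364 to 1.53 CPM (log2 fold change 2.06), but it too passed the count filter only through the knockdown libraries. COL12A1 and COL6A2 fell from 259.9 to 145 CPM and from 92.8 to 36.5 CPM.

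Proteases of the matrix moved in opposite directions. MMP1, the interstitial collagenase, was at 31.6, 34.8 and 31.5 CPM in the NC libraries and 204, 195 and 206 CPM in the knockdown libraries (log2 fold change 2.63, SE 0.06, adjusted P = 3.96e-11), and MMP3 rose as given above. MMP14, a membrane-bound protease, fell slightly (-0.27), MMP15 and MMP17 of the same kind fell more (-1.16 and -2.78), and RECK, an inhibitor of these enzymes, fell from 13.1 to 3.88 CPM (log2 fold change -1.75). Over the list, 3 of 13 members tested were raised and 7 were lowered.

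Axon guidance genes, which steer growing axons and also act on the movement of other cells, were lowered more often than raised. Of 42 tested, 10 were raised (23.8%) and 27 lowered (64.3%), beside 33.6% and 34.7% of all genes tested (median -0.45). With length and GC offsets 14 were raised and 21 lowered (median -0.30). The summed level of the list did not fall, at a mean of 2346 CPM in NC and 2421 CPM after knockdown. The list was not compared with genes of a like level. Another 21 listed genes had too few counts. Of the receptors, NEO1 (neogenin) was at 50.4, 48.1 and 48.7 CPM in the NC libraries and 11.1, 10.5 and 10.9 CPM in the knockdown libraries (log2 fold change -2.17, SE 0.07, adjusted P = 2.69e-10), and PLXND1, a plexin, fell from 142 to 33.3 CPM (log2 fold change -2.09). Of the ligands, SEMA4B and SEMA3F fell from 98.6 to 27.7 CPM and from 19.5 to 7.31 CPM, whereas NTN4 (netrin-4) and SEMA7A rose from 14.5 to 66.8 CPM (log2 fold change 2.21) and from 76.4 to 215 CPM (log2 fold change 1.49). NRP1, a semaphorin co-receptor, rose (0.49) and NRP2 fell (-0.39).

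Actin and contractility genes were mixed around the losses of MYL9 and MYH10, with 18 raised and 13 lowered of 38, and the majority turned under 2 settings. TAGLN (SM22), an actin-binding protein of smooth muscle, fell from 11.3 to 4.48 CPM (log2 fold change -1.34), and ACTR3 of the ARP2/3 complex from 446 to 178 CPM (log2 fold change -1.32). FSCN1, the bundling protein of filopodia, rose from 95.1 to 211 CPM (log2 fold change 1.15), the GTPase gene RHOB from 17.7 to 56.4 CPM (log2 fold change 1.67), and CFL1 (cofilin) from 903 to 1414 CPM (log2 fold change 0.65). In the epithelial-mesenchymal transition list, 5 of 16 members tested were raised and 9 were lowered. ZEB1 and ZEB2, repressors of epithelial genes, fell from 138 to 94.9 CPM (log2 fold change -0.54) and from 20.7 to 8.92 CPM (log2 fold change -1.21), and SNAI2 (Slug) rose (0.52). Epithelial members went both ways. The keratin genes KRT18 and KRT8 rose (0.90 and 0.41) while KRT19 fell (-1.21). CLDN1 had the largest rise in the list (1.43), whereas CLDN4, EPCAM, CLDN7 and OCLN fell (-0.96, -0.70, -0.32 and -0.21). PRRX1 had at most 3 counts in each knockdown library against 30 to 43 in NC and was at least 10.1-fold lower, taken against 3 counts in the shallowest knockdown library. In the stemness list, 4 of 16 members tested were raised and 6 were lowered, a majority that turned when members under 10 CPM were left out. NOTCH3 fell from 14 to 2.41 CPM (log2 fold change -2.54), HES1, a target of Notch, rose from 1.71 to 8.11 CPM (log2 fold change 2.24) and CD44 was not called, at 400.1 and 398.9 CPM.

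Among the signalling lists the AP-1 and immediate early genes were raised more often than lowered, with 12 and 6 of 22 (median 0.36). Both abundant and rare members were on the lowered side. FOSL1 (FRA-1), the AP-1 subunit typical of these cells, was at 649.9, 636 and 647 CPM in the NC libraries and 143, 140.2 and 145 CPM in the knockdown libraries (log2 fold change -2.17, SE 0.04, adjusted P = 3.75e-11). SRF, serum response factor, the activator of many contractile genes, was at 133, 129 and 136 CPM in the NC libraries and 32.4, 34.6 and 33.3 CPM in the knockdown libraries (log2 fold change -1.99, SE 0.05, adjusted P = 1.39e-10). JUN and FOSL2 rose from 179 to 254 CPM (log2 fold change 0.50) and from 95.1 to 182 CPM (log2 fold change 0.93), and IER2 rose most (1.94). EGR1 went from 13 to 1.76 CPM, with a wide standard error of 0.68 on the log2 scale. Its SD among the NC libraries was 14.0 CPM, larger than its mean there. For feedback genes of the ERK pathway, 11 of 18 members tested were raised and 3 were lowered. DUSP5 rose from 181 to 348 CPM (log2 fold change 0.94), SPRY2 from 30.7 to 37.7 CPM, and DUSP6 was near the limit of a call (log2 fold change 0.17, SE 0.06, adjusted P = 0.0259) and turned negative in the fits on TPM. EGFR was not called (-0.14). Of its relatives and ligands, ERBB2 and HBEGF fell from 67.2 to 37 CPM and from 64.4 to 34.5 CPM, TGFA rose from 4.76 to 14 CPM, and over the list 3 of 9 members tested were raised and 5 were lowered.

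The TGF-beta and BMP list was split, with 17 raised and 14 lowered of 36, and its majority turned under 7 settings. Receptors and ligands each went both ways. TGFBR2, the receptor that binds the ligand, was at 204, 209 and 212 CPM in the NC libraries and 48.4, 51.6 and 42.7 CPM in the knockdown libraries (log2 fold change -2.13, SE 0.07, adjusted P = 3.13e-10), whereas TGFBR1, its signalling partner, rose from 36.4 to 89.4 CPM (log2 fold change 1.30). TGFB1 fell from 57.4 to 35.4 CPM (log2 fold change -0.70) and TGFB2 rose from 63.3 to 196 CPM (log2 fold change 1.63). Of the inhibitors and targets, SMAD7 rose from 2.82 to 12.7 CPM (log2 fold change 2.18), SKI rose from 63.6 to 153 CPM (log2 fold change 1.27), and ID1 and ID3, direct targets of BMP, fell (-1.91 and -1.80). INHBB, which encodes a chain of activin B, rose most, from 0.944 to 4.57 CPM (log2 fold change 2.27).

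For Wnt signalling, 10 of 35 members tested were raised and 18 were lowered (median -0.23). AXIN2, a direct target, fell (-0.68), as did the nuclear partners LEF1 and TCF7 (-1.39 and -2.49), while CTNNB1 (beta-catenin) rose from 247 to 355 CPM (log2 fold change 0.53) and WNT7B and WNT5A, both ligands, rose (1.33 and 0.69). LGR5, a receptor of R-spondins, had 27 to 42 counts in the NC libraries and at most 1 after knockdown and was at least 9.94-fold lower, taken against 3 counts in the shallowest knockdown library. YAP/TAZ targets were divided, with 10 raised and 12 lowered of 26 and a majority that turned under 1 setting. CCN2 (CTGF) was at 638, 705 and 673 CPM in the NC libraries and 219, 227 and 231 CPM in the knockdown libraries (log2 fold change -1.57, SE 0.05, adjusted P = 4.35e-10), CCN1 (CYR61) was not called (0.03), and LATS2 and AMOTL2, which hold YAP back, rose from 46.1 to 99.8 CPM and from 337 to 554 CPM.

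For hypoxia targets outside glycolysis, 6 of 22 members tested were raised and 10 were lowered. HIF1A, the oxygen-regulated factor, was at 417, 446 and 459 CPM in the NC libraries and 211, 195 and 179.9 CPM in the knockdown libraries (log2 fold change -1.17, SE 0.06, adjusted P = 1.6e-08), and EPAS1 (HIF-2 alpha) rose from 24.3 to 76 CPM (log2 fold change 1.65). STC1, stanniocalcin, fell from 223 to 27.3 CPM (log2 fold change -3.03) and BNIP3, a mitophagy receptor, from 288 to 158 CPM (log2 fold change -0.86), whereas VEGFA and ADM rose by log2 values of 0.22 and 0.91. The study also measured a panel of genes by RT-qPCR. In these libraries the 9 panel genes described here were all lowered. IL11, CCN2, CDKN1A and MATN2 are given with their lists, and RCN1, VDAC1, ADAMTSL4, FERMT2 and MCAM had log2 fold changes of -0.97, -1.92, -1.94, -0.69 and -1.79. That panel was chosen on these libraries and is not independent evidence of its direction.

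Chromatin regulators moved individually. Among histone acetyltransferases and deacetylases, 13 of 28 members tested were raised and 8 were lowered. KAT5 (TIP60), an acetyltransferase, was at 32.8, 35.3 and 34.7 CPM in the NC libraries and 17.2, 18.1 and 17.7 CPM in the knockdown libraries (log2 fold change -0.95, SE 0.07, adjusted P = 1.3e-07), and CREBBP (CBP) was at 80.6, 83.1 and 77.1 CPM in the NC libraries and 173, 179 and 129.6 CPM in the knockdown libraries (log2 fold change 1.00, SE 0.10, adjusted P = 3.13e-06). The groups did not overlap for either gene. EP300, the closest relative of CREBBP, was not called (0.03), although it gained a call without KD3 and with length and GC offsets. HDAC2 fell from 269 to 129.8 CPM (log2 fold change -1.05) and HDAC1 rose from 106 to 145 CPM (log2 fold change 0.44). Among methyltransferases and demethylases, 17 of 44 members tested were raised and 12 were lowered, and EZH2 fell (-0.70) while EZH1, which can stand in for it, rose (1.12). KDM5B, which removes methyl groups from lysine 4 of histone H3, fell from 73.6 to 23.7 CPM (log2 fold change -1.64). Splicing factors changed little. In the hnRNP and SR list, 17 of 37 members tested were raised and 9 were lowered, all with a log2 fold change between -0.48 and 0.58, and PTBP1 and SRSF3, which act on PKM splicing, were not called (0.02 and 0.07). NONO rose (0.30).

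ZNF zinc finger genes, many of them repressors of transposable elements, were raised more than lowered. Of 519 listed, 444 were tested, and 190 were raised and 98 lowered (median 0.21), against 90 and 72 in the fit on log2(TPM + 1) without a filter. ZNF678 rose most, at 3.41, 3.02 and 2.82 CPM in the NC libraries and 25.5, 23.8 and 22.1 CPM in the knockdown libraries (log2 fold change 2.94, SE 0.11, adjusted P = 1.03e-09). ZNF267 and ZNF699 rose from 9.64 to 61.1 CPM and from 6.88 to 41.5 CPM, and ZNF362 and ZNF512B fell from 9.3 to 0.766 CPM and from 75.5 to 17.3 CPM. Host genes of small nucleolar RNAs gave 14 raised and 7 lowered of 29, a majority that turned under 1 setting. SNHG17 and ZFAS1 rose from 37.1 to 83.9 CPM and from 87.2 to 158 CPM, GAS5 rose (0.32), and SNHG16 and SNHG4 fell from 81.3 to 50.5 CPM and from 29.9 to 12.9 CPM.

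Of the 11 identity markers of breast cancer lines tested, 3 were raised and 6 lowered (median -0.21). VIM (vimentin) was at a mean of 3939 CPM in NC and 4331 CPM after knockdown, CAV1 went from 158 to 176 CPM, and AXL and MSN fell from 1098 to 816 CPM and from 1541 to 1135 CPM. The luminal markers FOXA1 and GATA3 were low in NC and fell, from 2.51 to 1.3 CPM and from 6.03 to 3.4 CPM, and ERBB2 fell as given above. ESR1, PGR, CDH1, KRT5 and KRT14, markers of luminal, epithelial or basal cells, had too few counts to be tested. Of 14 markers of leukocytes, endothelium, fibroblasts, smooth muscle, liver and red cells, 9 had too few counts, and CD3E, LUM, DCN and HBB had none. The summed level of the 5 tested was between 143.8 and 145.4 CPM in NC and between 62.5 and 66.2 CPM after knockdown. Nearly all of it was CD68, a lysosomal glycoprotein used as a macrophage marker, which fell from 140.3 to 61.3 CPM (log2 fold change -1.19). Genes often used to normalize RT-qPCR moved as well. Of 10, 4 were raised and 5 lowered. GAPDH was at 3266, 3283 and 3515 CPM in the NC libraries and 2435, 2646 and 2800.2 CPM in the knockdown libraries (log2 fold change -0.35, SE 0.06, adjusted P = 0.000137), PPIA (cyclophilin A) fell from 1118 to 537 CPM (log2 fold change -1.06), B2M rose as given above, and SDHA was not called (0.10).

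Gene classes differed in how they moved. Protein-coding genes were split into 5 equal bins by mean level over the 6 libraries. Those of the lowest bin had a median log2 fold change of -0.47, with 383 raised and 1125 lowered of 2553, and those of the highest bin 0.20, with 1433 raised and 634 lowered of 2553. The bins between them were in order. The gap between the highest and the lowest bin was 0.67, and it shrank to 0.33 in the fit on log2(TPM + 1) without a filter, in which a pseudocount compresses low genes. By GC content of the transcript the medians ran from 0.13 in the lowest bin to -0.27 in the highest, and the gap of -0.40 became -0.04 with the offsets that remove such a trend by construction. Libraries of the same group also differed by GC content. The Spearman correlation of a library's deviation from the NC mean with GC content was -0.09, -0.12 and 0.21 in the NC libraries. In the knockdown libraries it was -0.21, -0.19 and -0.13, and the part of such library trends in the gap was not tested. By transcript length they ran from 0.08 to -0.09, and the gap of -0.17 became -0.05 without KD3. By description only, the log2 fold change had a Spearman correlation of 0.28 with mean CPM and -0.07 with length across 12762 protein-coding genes, and of -0.18 with GC content across 12759.

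**Figure D2:**
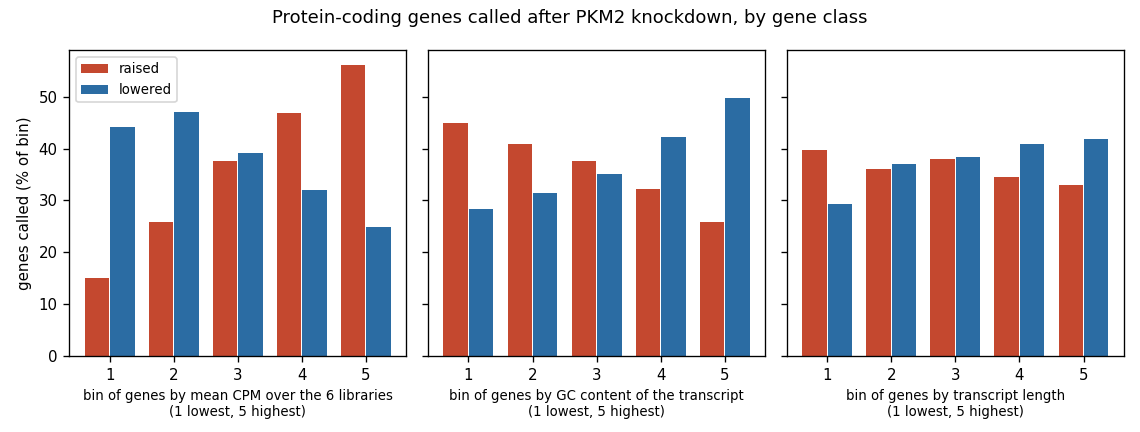
Share of protein-coding genes raised (red) and lowered (blue) at an adjusted P below 0.05 in each of 5 equal bins of genes, from lowest to highest, by mean CPM, GC content and transcript length. By mean CPM the raised share climbs from 15% to 56.1%, by GC content it falls from 44.9% to 25.8%, and by length the shares change least.

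By biotype, lincRNA genes gave 168 raised and 128 lowered of 645, antisense RNA genes 183 and 174 of 838, and processed pseudogenes 36 and 20 of 175. Transcribed unprocessed pseudogenes stood at 32 raised and 91 lowered of 229 (median log2 fold change -0.31). Strand use in counting is not given in the sources used here, so reads of antisense genes and their partners cannot be told apart, and pseudogene counts are uncertain for their likeness to the parent genes.

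The KEGG pathway names that the deposited table gives each gene were used as a wider view that did not depend on the lists. Of 293 pathways with 15 to 300 tested genes, those with the lowest medians were led by Arrhythmogenic right ventricular cardiomyopathy (median log2 fold change -0.80, 9 raised and 32 lowered of 50), whose genes are mostly integrins, cadherins and calcium channels. ECM-receptor interaction stood at -0.54, with 14 raised and 45 lowered of 83. At the other end was Systemic lupus erythematosus (0.95, 41 raised and 8 lowered of 57), which in KEGG is made up largely of histone genes. Apoptosis in multiple species stood at 0.33, Protein export at 0.26 and Ribosome at 0.23. Pathways share genes with each other and with the lists, so these medians are not separate counts.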

How the data were processed

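The 6 libraries of MDA-MB-231 cells, 3 NC and 3 PKM2 knockdown, were analysed from the PKM2 table of the series. Per the study's methods and the labels, total RNA was extracted with TRIzol, selected with oligo(dT) beads, fragmented, primed with random hexamers, amplified by PCR and sequenced in pairs of 150 bases on an Illumina NovaSeq. The submitters' processing notes name fastp, HISAT2, StringTie, RSEM, DESeq2, edgeR and limma with the build hg19 and give no versions. The estimated counts per gene, as deposited by the authors, need not be whole and were rounded here to whole numbers. The TPM values, which the authors deposited beside them and which are scaled for gene length and library total, were used only in alternative fits. Fold changes and P values that the authors computed were also in the table and were not used, and no per-library column was left out (0).

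Counts were filtered with filterByExpr and TMM-scaled, and tested with the quasi-likelihood test of edgeR 4.0.16 in R 4.3.3 over 15525 of 60671 genes, with Benjamini-Hochberg adjustment and no covariate. Genes near or under the filter in a group, such as AKR1B10 in NC or LGR5, PRRX1 and CCNE1 after knockdown, passed through the other group. For such genes a difference was built in. Every adjusted P printed is from this test, is two-sided and comes from 3 libraries a group. With 3 against 3, exact regrouping of a single gene could not go below 0.1. Alternatives were DESeq2 1.42.0, limma 3.58.1 on log2(TPM + 0.1) or log2(TPM + 1) with genes at a mean under 1 TPM left out, other scalings, no filter or at least 1 CPM in 3 libraries, offsets for length and GC content in 20 bins, a replicate block, and each library left out. Some of the fits were run on simulated counts in which 200 genes changed 4-fold. In the main fit all 200 were called, with 10 false calls among 15661 genes tested. Most tested genes moved in the real data, so the simulation does not show how the fits behave there. Biotype, GC content and location came from GENCODE 29 (GRCh38) by gene identifier, for 58453 of 60671 identifiers, and promoters from RefSeq GRCh38.p14.

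Genes were named by rule as PKM, the key members of each list, the 12 largest rises and falls among protein-coding DEGs with a mean of at least 10 CPM and groups that did not overlap, the largest called rise and fall of each list, and the RT-qPCR panel of the study. The other genes named in the text are list members or SLBP and were picked as examples after their values were seen. The members and lists were chosen with earlier results of these data known. Some genes are not reported here.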

Additional observations from a re-analysis of the deposited data

How the results depend on the processing

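Against 5221 raised and 5394 lowered genes, leaving out each library in turn gave 4862 to 5375 and 5029 to 5486, DESeq2 gave 5118 and 5053, and scaling to total counts only, which moved the median of all genes to -0.12 on the log2 scale, gave 4364 and 6192. The limma fit on log2(TPM + 1) without a filter called 3325 raised. DEGs raised numbered 692 on log2(TPM + 0.1), 506 on log2(TPM + 1) and 504 on that scale without a filter, against 1095, and DEGs lowered 1391 and 1412 on log2(TPM + 1) with and without the filter, against 2141. Asking for a fold change above 1.5 beside the adjusted P left 2497 raised and 3478 lowered. The gap in median log2 fold change between the highest and the lowest bin of mean CPM, 0.67, was 0.64 with length and GC offsets, with or without the replicate block, 0.56 on log2(TPM + 0.1), 0.40 and 0.33 on log2(TPM + 1) with and without the filter, and 0.67 to 0.69 with each library left out. For GC content the gap of -0.40 was -0.036 with the offsets and -0.041 with offsets and block, and -0.32 on log2(TPM + 1) with and without the filter. DUSP6 turned from 0.17 to -0.091 on log2(TPM + 0.1) and -0.090 on log2(TPM + 1) with or without the filter, and SRSF3, not called, from 0.07 to -0.12 with offsets, with or without the block. The offsets remove length and GC trends by construction, the limma fits differ from the counts in both tool and scale, and other causes were not tested. The replicate block gave 5174 raised and 5350 lowered genes and kept 10369 of the 10615 calls. NC and knockdown libraries of the same number did not deviate together (correlations -0.10, 0.01 and 0.02), so the numbers gave no pairing. Of 333 named genes, 276 kept direction and side of the threshold wherever they were tested, and 57 did not in at least 1 setting. Depth limits the rarest genes, as 3 counts in a library of this size come to about 0.12 CPM.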
